A study of Mus musculus with 24 samples.

Results

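The genes described here are 9 smooth-muscle contractile genes, Acta2, Actg2, Tagln, Cnn1, Cnn2, Myl9, Tpm1, Tpm2 and Srf, taken by name from a table of 55487 genes in mouse embryonic fibroblasts (MEFs), connective tissue cells grown from mouse embryos. They were listed by name, with earlier results of these data known. All 9 passed the filter on low counts, as did 28.5% of the genes in the table. Poly(A) RNA was sequenced in 24 libraries, 4 in each of 6 groups. WT MEFs and MEFs labelled as AMPK KO were treated with DMSO, the vehicle, with MK-8722, a small molecule that activates the kinase AMPK, or with torin1, which inhibits the kinase MTOR. According to the study's methods the knockout cells lack Prkaa1 and Prkaa2, which encode the catalytic subunits of AMPK, and both kinds of MEFs came from another laboratory. The labels give no dose or time for these libraries and name no separate cultures or animals, so p-values here measure the spread between the libraries of a group, which may in part be technical. In the labels, each group held 1 library of each of 4 passages, WT at 12 to 15 and AMPK KO at 16 to 19, so the genotype, the cell line and the passage range cannot be told apart.

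The total estimated count lay between 26900240 and 34192685 per library, and RNA integrity numbers lay between 9.7 and 10. Prkaa1 transcripts were present in every library labelled AMPK KO, at 65.6 to 82.5 CPM (library counts scaled to a common total) against 71.3 to 84.5 CPM in WT, and Prkaa2 was at 2.34 to 5.71 against 3.22 to 9.01 CPM, so these transcripts do not check the genotype labels. The libraries held fibroblast transcripts in both genotypes. The summed level of 13 fibroblast markers lay between 12030 and 18400 CPM in WT and between 5415 and 7267 CPM in AMPK KO, with Col1a1, Vim and Fn1 among the abundant ones and Dcn, Lum and Fap near 0 in both. The collagen gene Col1a2 was at 2503 ± 600.9 CPM in WT DMSO against 28.4 ± 12.6 CPM in AMPK KO DMSO, Col3a1 was at 114 ± 51.4 against 13.3 ± 1.7 CPM, and Thy1 was low in both, at 1.3 ± 0.316 against 0.196 ± 0.079 CPM (SD, n = 4 each). Of 9 markers that define smooth muscle cells, Smtn and Mcam made up most of the summed level in DMSO (WT, 306.9 to 368 CPM, AMPK KO, 195 to 229 CPM), while Myh11, the smooth muscle myosin heavy chain, Kcnmb1 and Myocd were at or near 0 in every group. The contractile genes below were thus measured in cells with almost no transcripts of these 3 defining markers. Transcripts of epithelial, endothelial and leukocyte markers summed to at most 6.87, 8.76 and 4.71 CPM per library, and those of 8 skeletal and cardiac muscle markers to at most 4.87 CPM per WT library and 31.1 CPM per AMPK KO library, where Tnnt2 carried most of it. In bulk RNA, fewer cells that express a gene and less of its RNA per cell cannot be told apart.

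Smooth muscle actin filaments slide on myosin when its regulatory light chain is phosphorylated, and tropomyosins, calponins and transgelin lie along the actin filament. Fibroblasts raise these genes when they become contractile myofibroblasts, for which Acta2 is the usual marker. Many of them are switched on by serum response factor, encoded by Srf, which binds a DNA motif called the CArG box and works with cofactors of the MRTF family that are released when actin is assembled, and TGF-beta is a well-known inducer of the same program.

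**Figure D1:**
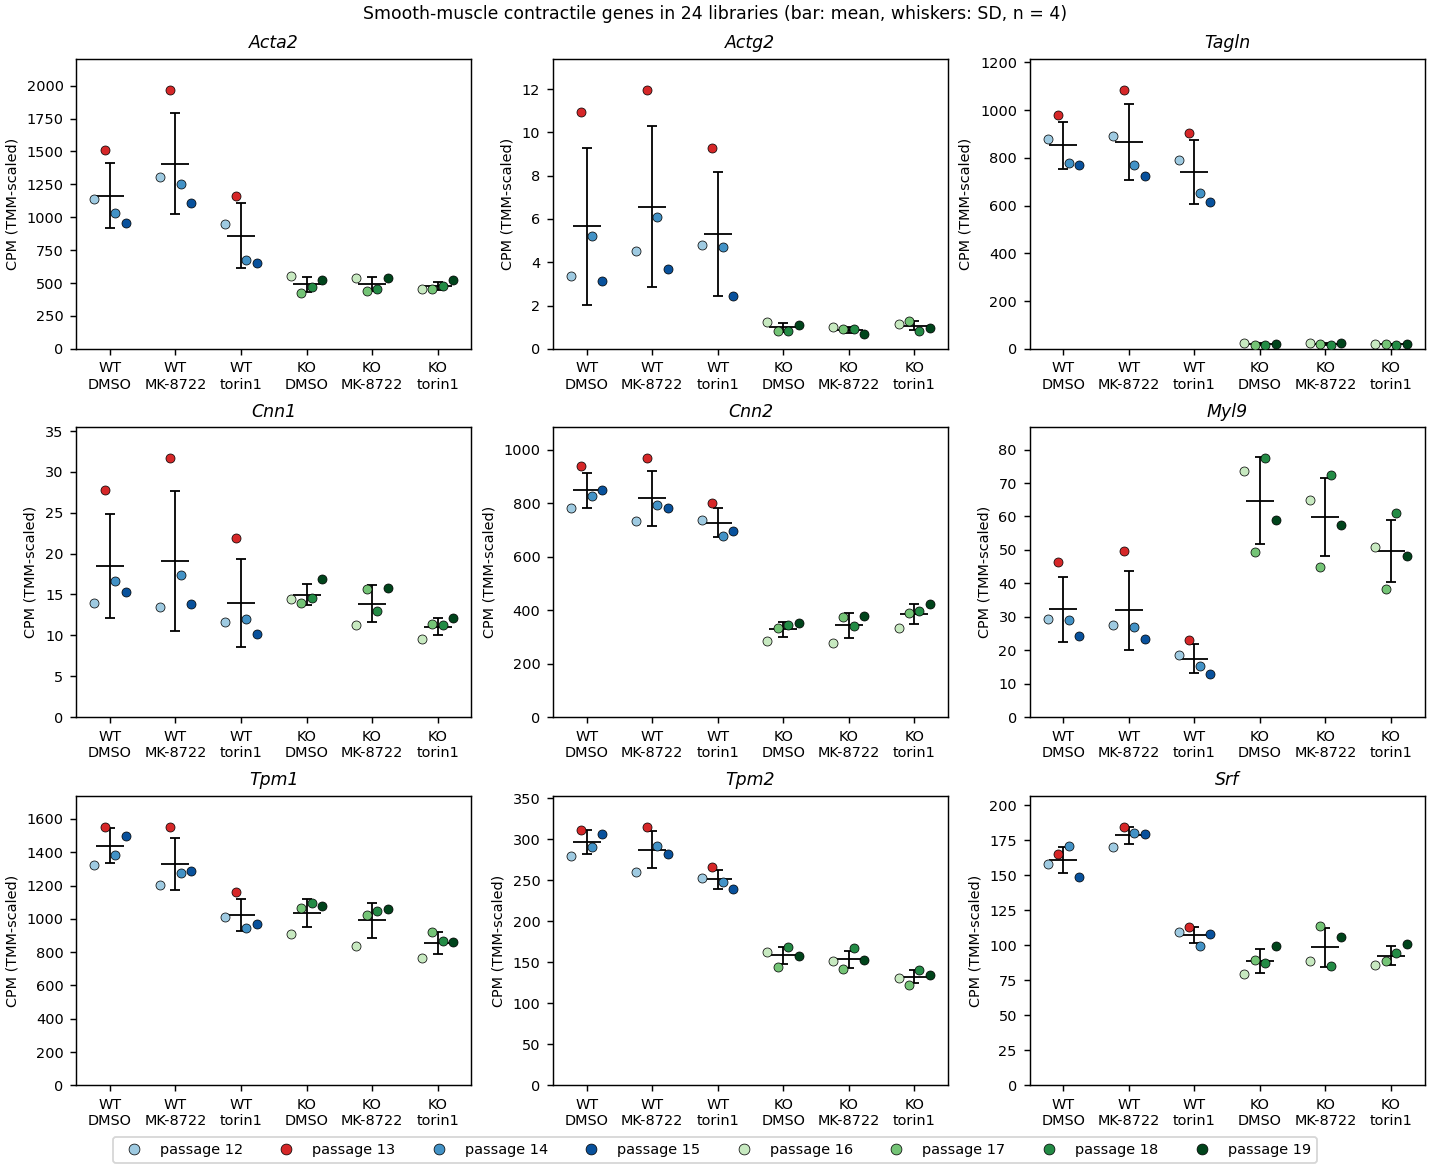
The level of each contractile gene in each library is plotted in CPM by group, with colour marking the passage, a horizontal bar the mean and whiskers the SD (n = 4). Tagln in AMPK KO lies close to 0 beside WT, Myl9 is higher in AMPK KO DMSO than in WT DMSO, and the red points of passage 13 are the highest of each WT group for 8 genes.

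On the scale of TPM, which corrects for transcript length and so allows genes to be compared, the contractile genes of WT DMSO cells spanned a range from 1486 ± 113 (SD, n = 4) for Tpm1 to 7.96 ± 4.71 for Actg2. Between them came Acta2 at 1157 ± 247, Tagln at 976 ± 116, Cnn2 at 689 ± 63.3, Tpm2 at 405 ± 18.6, Srf at 113 ± 8.09, Myl9 at 56.2 ± 18.1 and Cnn1 at 22.1 ± 7.8 TPM. The ranges of Tpm1 and Acta2 overlapped, as did those of Acta2 and Tagln, and the other neighbours in this order did not overlap. In AMPK KO DMSO cells Tpm1 again led at 1181 ± 85.0 TPM, followed by Acta2 at 522 ± 68.6, Cnn2 at 286 ± 20.99, Tpm2 at 190.1 ± 15.7, Myl9 at 122 ± 27.9 and Srf at 67.2 ± 5.5 TPM. Tagln had rank 3 in WT and rank 7 in AMPK KO, where it was at 22.3 ± 3.33 TPM and overlapped Cnn1 at 18.6 ± 1.71 TPM. Actg2 was last in both, at 1.55 ± 0.328 TPM in AMPK KO.

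The first comparison asked how the contractile genes differed between AMPK KO and WT cells without a drug. In DMSO, 8 of the 9 genes were called, that is they changed by at least 1.2-fold with a false discovery rate (FDR) below 0.05, and 7 of them were lower and 1, Myl9, higher in AMPK KO. The FDR throughout is the p of edgeR's quasi-likelihood test after Benjamini-Hochberg adjustment over all 15828 genes tested, of which 56.9% were called, 26.0% lower and 30.9% higher. The median log2 fold change of the contractile genes was -0.91 against 0.015 for all genes tested. The fibroblast markers were lower in the same comparison, with 9 of the 10 tested lower and 1, Pdgfra, higher and a median of -0.99, while of 7 tested smooth muscle markers 2 were higher and 2 lower, with a median of -0.005. The part of these marker levels in the difference was not tested. The count of 8 was the same in every fit that left out 1 library.

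**Figure D2:**
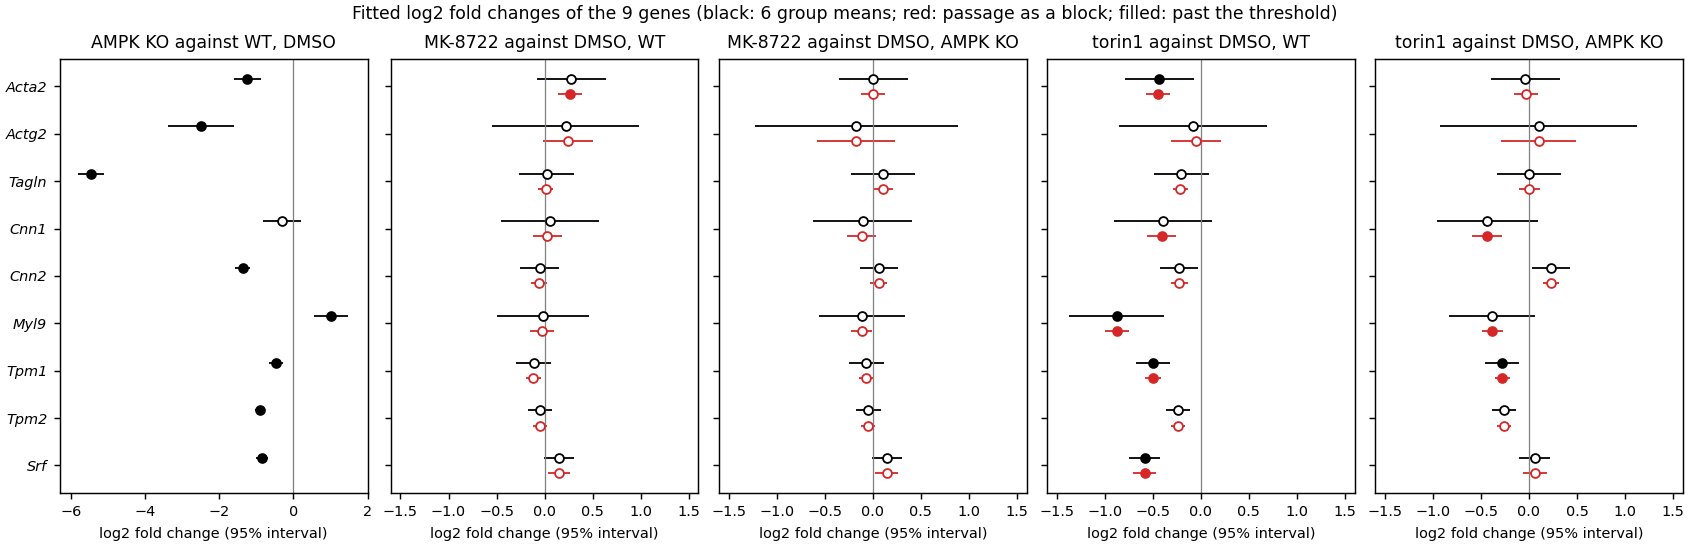
The log2 fold change of each contractile gene is plotted with its 95% interval in 5 comparisons, in black from the fit of 6 group means and in red with passage as a block, and filled points were called. The first panel, which has its own scale, runs from Tagln at -5.46 to Myl9 at 1.01, and in the drug panels the red intervals are shorter than the black ones.

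Tagln encodes transgelin, an actin-binding protein of smooth muscle and fibroblasts, on chromosome 9 (GRCm38, 45929619 to 45936058, minus strand). In WT DMSO it was at 879.6, 981, 780.2 and 770.2 CPM at passages 12, 13, 14 and 15, and in AMPK KO DMSO at 23.7, 18.2, 15.9 and 19.6 CPM at passages 16 to 19. Every AMPK KO library was far below every WT library. The log2 fold change was -5.46 (SE 0.172, FDR = 2.2e-18), that is 44.1-fold lower in AMPK KO. Counts remained well above the detection limit in the AMPK KO DMSO libraries, at 529 to 778 per library against 21381 to 28016 in WT. Neither drug changed Tagln past the threshold. Its WT level was 867 ± 161 CPM with MK-8722 and 739.9 ± 133 CPM with torin1, and its AMPK KO level 20.9 ± 3.62 and 19.4 ± 2.84 CPM (SD, n = 4 each). The gene overlaps an antisense transcript, Gm48529, over 3627 bases and Pcsk7 over 108 bases on the opposite strand, and 57.9% of all 52-base words of its transcripts occur, read on either strand, in transcripts of these genes. Whether the counting used strand is not given in the sources used here, so reads in the overlap cannot be assigned with certainty. Gm48529 itself was given a mean of 87.8 counts per library in WT and 31.7 in AMPK KO. These values rest on the same assignment of reads and so cannot settle how much of the Tagln count came from the overlap.

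The smooth muscle actins were lower in AMPK KO as well. Acta2, smooth muscle alpha-actin (chromosome 19, 34241090 to 34255590, minus strand), was at 1141, 1514, 1034 and 957 CPM in WT DMSO and at 550.1, 421, 468 and 524 CPM in AMPK KO DMSO, in the order of passages. Its groups did not overlap, and the log2 fold change was -1.24 (SE 0.175, FDR = 1e-06). Actg2, enteric smooth muscle gamma-actin (chromosome 6, 83512905 to 83536265, minus strand), was the scarcest member, with 87 to 299 counts per WT DMSO library and 25 to 41 per AMPK KO DMSO library. Its WT DMSO libraries were at 3.36, 10.9, 5.19 and 3.13 CPM and its AMPK KO libraries at 1.25, 0.809, 0.84 and 1.08 CPM, and it differed by -2.50 on the log2 scale (SE 0.435, FDR = 1.9e-05). Here, too, the groups did not overlap, although passage 13 stood far above the other WT libraries.

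Calponins bind actin and restrain its sliding on myosin. Cnn1, the smooth muscle form (chromosome 9, 22099216 to 22109630, plus strand), did not pass the test between genotypes. It was at 13.9, 27.8, 16.7 and 15.3 CPM in WT DMSO and at 14.4, 13.9, 14.6 and 16.8 CPM in AMPK KO DMSO, and the groups overlapped apart from passage 13. The log2 fold change was -0.30 (SE 0.247, FDR = 0.29), with a 95% interval from -0.81 to 0.21. Cnn2, the broadly expressed form (chromosome 10, 79988584 to 79996062, plus strand), was at 782, 939, 829 and 849 CPM in WT DMSO and at 287, 332, 343 and 351 CPM in AMPK KO DMSO. All AMPK KO libraries were below all WT libraries, with a difference of -1.37 on the log2 scale (SE 0.0978, FDR = 9.5e-12).

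Myl9, which encodes a regulatory myosin light chain of smooth muscle and non-muscle cells (chromosome 2, 156775420 to 156781658, plus strand), was the only one of the contractile genes that was higher in AMPK KO DMSO. It was at 29.4, 46.3, 29.0 and 24.1 CPM in WT and at 73.6, 49.3, 77.4 and 58.9 CPM in AMPK KO. The lowest AMPK KO library, passage 17, was only a little above the highest WT library, passage 13. The log2 fold change was 1.01 (SE 0.224, FDR = 0.00033), a 2.01-fold higher level.

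Tropomyosins are coiled-coil proteins that wind along actin filaments, and Tpm1 and Tpm2 make their muscle and non-muscle forms by choosing between alternative exons. Tpm1 (chromosome 9, 67022590 to 67049406, minus strand) was at 1322, 1554, 1384 and 1500.25 CPM in WT DMSO and at 912, 1064, 1098 and 1075 CPM in AMPK KO DMSO, and Tpm2 (chromosome 4, 43514711 to 43523765, minus strand) at 279, 311, 289.8 and 306 against 163, 144, 169 and 157 CPM. Neither pair of groups overlapped, and the log2 fold changes were -0.47 (SE 0.0872, FDR = 3.9e-05) for Tpm1 and -0.91 (SE 0.0614, FDR = 3.8e-12) for Tpm2. That of Tpm1 was under 1.5-fold.

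Srf itself (chromosome 17, 46548329 to 46556175, minus strand) was at 158, 165, 171 and 149 CPM in WT DMSO and at 79.1, 89.7, 87.1 and 99.3 CPM in AMPK KO DMSO. No library of either group came near the other group, and the log2 fold change was -0.86 (SE 0.0775, FDR = 6.8e-10). The gene lies within the annotated non-coding gene Gm26904 on the opposite strand, for which no count was analysed here.

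When the 12 AMPK KO libraries of all treatments were set against the 12 WT libraries, those of AMPK KO lay entirely below for Acta2, Actg2, Tagln, Cnn2 and Tpm2, as they did for 12.4% of all genes tested. For Acta2 the AMPK KO range was 421 to 550.1 CPM and the WT range 652 to 1966 CPM. Ranges overlapped for Cnn1, Myl9, Tpm1 and Srf. For Srf and Tpm1 the overlap came from the WT torin1 libraries, which were the lowest of the WT libraries.

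The estimated transcripts of the tropomyosin genes differed between the genotypes beyond the level of the gene. Of 22 transcripts of the contractile genes with a mean share of at least 10% of the TPM of their gene in some group, 4 had shares that did not overlap between the 12 WT and the 12 AMPK KO libraries, and all 4 belonged to Tpm1 and Tpm2. Among such transcripts of the genes tested that had more than 1 transcript and a value in every library, 1.21% of 33585 did not overlap. The transcript Tpm2-203 made up 78.7% of Tpm2 on average in WT (74.5% to 83.3%) and 56.7% in AMPK KO (53.3% to 59.96%), and Tpm2-202 made up 8.35% (7.13% to 9.95%) against 27.8% (26.2% to 30.5%). Tpm1-213 held 29.5% of Tpm1 in WT (24.7% to 35.7%) and 17.9% in AMPK KO (15.3% to 21.2%), while Tpm1-216 held 25.8% (22.5% to 28.0%) and 32.8% (30.5% to 35.1%). The shares of Acta2, Tagln, Cnn1, Cnn2, Myl9 and Srf transcripts overlapped. With estimated counts in place of TPM, which changes the sizes of the shares, the same 4 transcripts did not overlap and had the same direction.

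**Figure D3:**
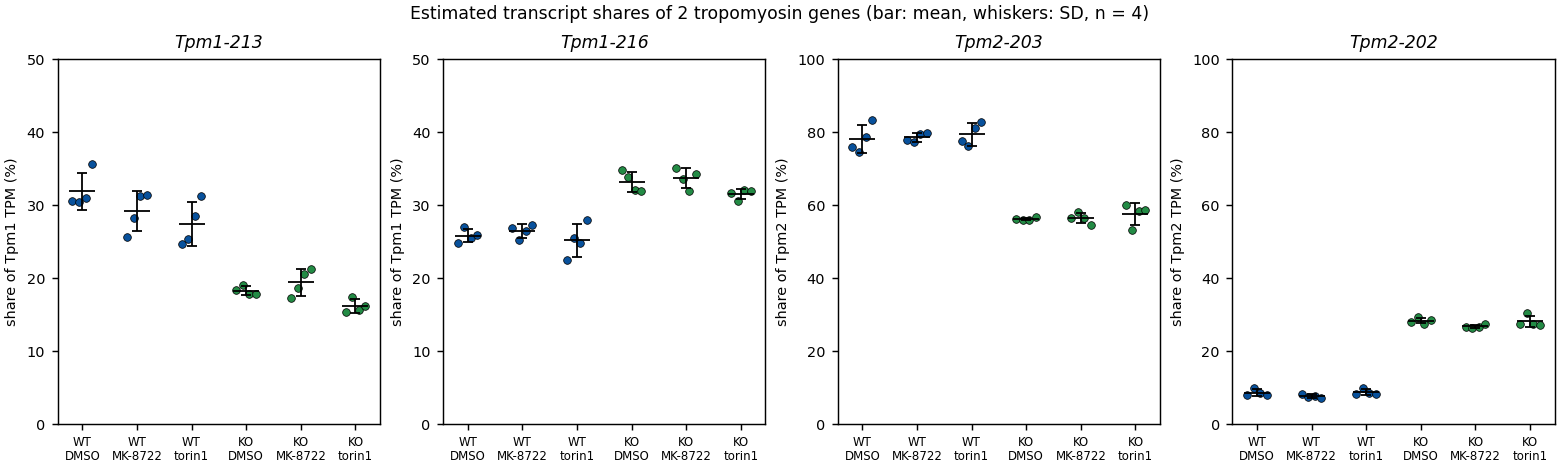
The share of each transcript in the TPM of its gene is plotted in percent for each library by group, with the mean as a bar and the SD as whiskers (n = 4). The vertical axes end at 50% for Tpm1 and at 100% for Tpm2. The WT and AMPK KO libraries separate in all 4 panels under each treatment, with Tpm1-213 and Tpm2-203 lower and Tpm1-216 and Tpm2-202 higher in AMPK KO.

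In each gene the transcripts of the pair differ in exon 6, of 76 bases and coding in all 4, taken from neighbouring positions. The exons are printed here because exon 6 is the only internal exon that differs within each of these pairs. The transcripts of a pair also differ in the lengths of the first and last exons. In Tpm2 the last exons overlap but begin at different positions, 43514861 in Tpm2-203 and 43516003 in Tpm2-202. They are written 5′ to 3′ as in the transcripts of the GENCODE annotation of GRCm38, both genes being on the minus strand, with capitals at the positions where the 2 exons of a gene differ when set side by side without gaps. For Tpm1 the exon lies at chr9:67032466-67032541 in Tpm1-213 and at chr9:67031951-67032026 in Tpm1-216, and for Tpm2 at chr4:43519003-43519078 in Tpm2-203 and at chr4:43518644-43518719 in Tpm2-202.
Tpm1-213 exon 6: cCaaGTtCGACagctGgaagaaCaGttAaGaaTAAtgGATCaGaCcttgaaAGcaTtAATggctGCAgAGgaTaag
Tpm1-216 exon 6: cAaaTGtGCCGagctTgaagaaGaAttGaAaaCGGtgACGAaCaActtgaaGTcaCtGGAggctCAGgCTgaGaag
Tpm2-203 exon 6: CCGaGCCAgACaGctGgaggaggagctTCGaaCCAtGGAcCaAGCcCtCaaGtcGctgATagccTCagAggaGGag
Tpm2-202 exon 6: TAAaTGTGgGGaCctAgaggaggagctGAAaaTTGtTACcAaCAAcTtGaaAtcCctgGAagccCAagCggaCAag
The exons of a gene were identical at 43 of 76 positions in Tpm1 and at 41 in Tpm2. Between the genes, the exon of Tpm1-213 was closer to that of Tpm2-203 (64.5% identical) than to that of Tpm2-202 (52.6%), and the exon of Tpm1-216 was closer to that of Tpm2-202 (73.7%) than to that of Tpm2-203 (48.7%). Each exon was thus closer to the exon at the same place in the other gene than to the other exon of its own gene. In both genes the transcript of the pair with the lower share in AMPK KO held the upstream exon. The downstream exon of Tpm1 also stood in Tpm1-211, whose share overlapped between WT (6.04% to 11.56%) and AMPK KO (7.61% to 10.79%). As levels in DMSO cells, Tpm2-203 was at 315.5 ± 8.47 TPM in WT and 107 ± 9.16 TPM in AMPK KO, while Tpm2-202 was at 35.1 ± 5.2 TPM and 53.8 ± 3.61 TPM. Tpm1-216 was at 384 ± 38.3 TPM and 392 ± 35.3 TPM (SD, n = 4 each), and the mean of Tpm1-213 was 472 and 215.5 TPM. Transcript shares are estimates from short reads and single exons were not counted, so the use of exon 6 itself was not measured.

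The promoters of the contractile genes were searched for the CArG box, the motif that serum response factor binds, taken as CC followed by 6 bases that are each A or T and then GG, which reads the same on both strands. The window ran from 250 bases before to 50 after the start of the gene in RefSeq (GRCm38.p6), and 7 of the 9 genes matched an entry, all but Actg2 and Tagln. An exact CArG box stood in the windows of Cnn2, Myl9 and Srf, and Srf had 2. Among 32851 promoters of the same length, 1.63% held an exact box and 0.0183% held 2 or more. Acta2 and Tpm1 had matches with 1 mismatch, as 21.1% of all promoters do when exact matches are counted with them, and Cnn1 and Tpm2 had none. The stretches around the boxes of Srf, Cnn2, Myl9 and Acta2 follow, 5′ to 3′ on the strand of the gene. Exact boxes and those with 1 mismatch are in capitals. The matches of Tpm1, all with 1 mismatch, are not printed.
Srf, chr17:46556177-46556259, minus strand: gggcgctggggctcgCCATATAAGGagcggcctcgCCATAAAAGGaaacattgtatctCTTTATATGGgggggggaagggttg
Cnn2, chr10:79988529-79988568, plus strand: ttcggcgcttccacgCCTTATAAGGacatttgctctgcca
Myl9, chr2:156775288-156775389, plus strand: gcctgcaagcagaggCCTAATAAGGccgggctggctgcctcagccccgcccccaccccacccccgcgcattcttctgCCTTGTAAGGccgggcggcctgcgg
Acta2, chr19:34255383-34255472, minus strand: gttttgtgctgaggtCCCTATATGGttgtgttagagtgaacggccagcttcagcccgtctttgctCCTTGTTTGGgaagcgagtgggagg
In Srf the exact boxes ended 73 and 53 bases before the start, in Cnn2 the box ended 47 bases and in Myl9 152 bases before it. The capital run of Srf nearest to the start and both runs of Acta2 are matches with 1 mismatch, as is the second run of Myl9. These are matches of letters, and no binding was measured. The genes with an exact box moved in different directions, since Cnn2 and Srf were lower and Myl9 higher in AMPK KO DMSO.

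With torin1 the question was whether inhibition of MTOR changed the contractile genes, and whether it did so alike in both genotypes. In WT, 4 of the 9 genes, Acta2, Myl9, Tpm1 and Srf, were lower with torin1 than with DMSO and none was higher, against a background of 47.6% of all genes called and 21.1% of all genes called lower. The median log2 fold change was -0.39 against 0.036 over all genes tested. Of 7 tested smooth muscle markers 4 were higher and none lower, with a median of 0.62, and of 10 tested fibroblast markers 4 were higher and 4 lower. Their part in the result was not tested. In AMPK KO, Tpm1 alone was called (background 43.5% of all genes called, 17.6% of all genes called lower) and the median was -0.04 against 0.055.

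Myl9 had the largest fitted fall with torin1 in WT. Its libraries were at 18.7, 23.01, 15.3 and 13.0 CPM with torin1, each below its DMSO counterpart of the same passage, and the log2 fold change was -0.88 (SE 0.237, FDR = 0.0027). In AMPK KO it was at 50.8, 38.4, 61.2 and 48.2 CPM with torin1 against 73.6, 49.3, 77.4 and 58.9 CPM with DMSO. That difference, of -0.38 (SE 0.219, FDR = 0.14), missed the threshold, and with passage as a block it was called (log2 fold change -0.38, SE 0.0529, FDR = 2.9e-06).

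Srf fell with torin1 in WT and did not pass the test in AMPK KO. In WT it was at 109, 113, 99.7 and 108 CPM with torin1, below every DMSO library (149 to 171 CPM), and the log2 fold change was -0.58 (SE 0.077, FDR = 5.7e-07), 1.498-fold lower. In AMPK KO it was at 85.9, 89.0, 94.6 and 101 CPM with torin1 against 79.1, 89.7, 87.1 and 99.3 CPM with DMSO, overlapping groups with a difference of 0.06 on the log2 scale (SE 0.0776, FDR = 0.53). The difference between the genotypes in this response was itself tested and was 0.64 (SE 0.109, FDR = 0.00066), and it passed in all 28 alternatives. Cnn2 gave the other difference that passed, 0.46 (SE 0.136, FDR = 0.034). It was at 736, 799.9, 677 and 698 CPM with torin1 in WT, a log2 fold change of -0.22 (FDR = 0.047) that stayed under 1.2-fold, and at 332, 390.3, 398 and 422 CPM in AMPK KO, a change of 0.23 (FDR = 0.043), also under 1.2-fold. The call of Cnn2 was lost in 9 of 16 fits that left out 1 library, among both genotypes and treatments, with FDR from 0.022 to 0.16. Of all genes tested, 7.07% differed between the genotypes in the response to torin1, 4.15% in this direction.

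Tpm1 fell with torin1 in both genotypes, to 1009, 1159, 945 and 969 CPM in WT (log2 fold change -0.50, SE 0.0872, FDR = 2.9e-05) and to 763, 923, 869 and 863 CPM in AMPK KO (-0.28, SE 0.0871, FDR = 0.0084), and the difference between these responses did not pass (0.22, SE 0.123, FDR = 0.3). Without AMPK KO torin1 replicate 1, the library of passage 16, the fall of Tpm1 in AMPK KO was -0.24 and under 1.2-fold. Tpm2 had an FDR of 0.0014 in WT and 0.00085 in AMPK KO, with log2 fold changes of -0.24 and -0.26 that were just under 1.2-fold. In AMPK KO Tpm2 crossed 1.2-fold in all 8 fits that left out 1 library, at -0.3162 to -0.2649 against -0.2615 in the main fit. Each of these fits filtered and scaled the libraries anew, and all 8 lay beyond the main value. The cause of this shift was not tested. Acta2 was at 952, 1164, 675 and 652 CPM with torin1 in WT, a change of -0.43 on the log2 scale (SE 0.173, FDR = 0.034), and was nearly level in AMPK KO at 455, 454, 480.4 and 523 CPM (-0.04, SE 0.173, FDR = 0.87). The WT call of Acta2 was lost without WT DMSO replicate 2 or WT torin1 replicate 1 or 3 (log2 fold change from -0.62 to -0.29 and FDR up to 0.16 over the 8 fits). Cnn1 was at 11.7, 21.96, 12.1 and 10.2 CPM with torin1 in WT and at 9.59, 11.4, 11.2 and 12.1 CPM in AMPK KO. Its fitted changes of -0.39 and -0.43 did not pass (FDR = 0.18 and 0.15), and without WT torin1 replicate 2, the library of passage 13, the WT change was called at -0.71 (FDR = 0.015). Without that library 7 of the 9 genes were called lower with torin1 in WT. This was the highest count among the 8 fits that left out 1 library in this comparison, which called 3 to 7.

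With MK-8722, which addressed the effect of activating AMPK, none of the 9 genes was called in WT (background 15.7%), none in AMPK KO (1.56%) and none differed between the genotypes in the response (12.8%). None had an unadjusted p under 0.05 in edgeR in these 3 comparisons, and DESeq2 also called 0. Intervals leave room for changes of the scarcer or more variable genes, from -0.55 to 0.98 on the log2 scale for Actg2 and from -0.08 to 0.63 for Acta2 in WT, but were narrow for Tpm2, from -0.17 to 0.08. Acta2 in WT was at 1303, 1966, 1252 and 1106 CPM with MK-8722, each above the DMSO library of the same passage, by 0.19 to 0.38 on the log2 scale. Its log2 fold change of 0.28 (SE 0.173, FDR = 0.26) was called once passage was a block (0.26, SE 0.0593, FDR = 0.0014), where 18.4% of all genes were called. With that block the response of Acta2 differed between the genotypes by -0.26 (SE 0.0841, FDR = 0.027), which was under 1.2-fold and so not called. Srf stood at 169.8, 185, 179.8 and 179 CPM with MK-8722 in WT, higher at all 4 passages like Acta2 and Actg2 (24.6% of all genes tested), with a difference of 0.15 on the log2 scale (SE 0.0764, FDR = 0.16) that was under 1.2-fold in either fit.

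Because each group holds 1 library of each passage, drug and DMSO libraries of the same passage could be compared directly. With torin1 in WT, 8 of the 9 genes, all but Actg2, were lower than DMSO at all 4 passages, as were 31.9% of all genes tested. Myl9 fell by 0.66 to 1.01 and Srf by 0.47 to 0.78 on the log2 scale. In AMPK KO, 4 genes, Cnn1, Myl9, Tpm1 and Tpm2, were lower at all 4 passages (30.1% of all genes tested) and Cnn2 was higher at all 4 (39.3%). With passage as a block in the edgeR fit, torin1 lowered 5 contractile genes in WT (49.6% of all genes called) and 3 in AMPK KO (45.8%). Added in both genotypes was Cnn1, at -0.41 (SE 0.0722, FDR = 5.1e-05) in WT and -0.44 (SE 0.0735, FDR = 3.2e-05) in AMPK KO. In WT, Tagln (-0.22, FDR = 5.1e-05), Cnn2 (-0.22, FDR = 7e-05) and Tpm2 (-0.24, FDR = 3e-06) were lower but under 1.2-fold. In AMPK KO, Tpm2 was lower (-0.26, FDR = 1.6e-06) and Cnn2 higher (0.23, FDR = 6.1e-05), also under 1.2-fold. In the same fit 4 genes differed between the genotypes in the response to torin1 (11.8% of all genes). Beside Srf and Cnn2 these were Acta2, at 0.42 (SE 0.0843, FDR = 0.0016), and Myl9, at 0.49 (SE 0.0814, FDR = 0.00033), both of which fell less in AMPK KO.

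Within the WT groups, the contractile genes varied mainly with passage, a pattern that was noticed after the values were seen and is given as a description. The library of passage 13 was the highest of the 4 passages under DMSO, MK-8722 and torin1 alike for 8 of the 9 genes, all but Srf, whereas 6.47% of all genes tested were highest at passage 13 under all 3 treatments. Relative to the mean of its group, passage 13 was on average 2.05 times as high for Actg2, 1.66 for Cnn1, 1.48 for Myl9, 1.38 for Acta2, 1.22 for Tagln, 1.13 for Cnn2 and Tpm1, and 1.07 for Tpm2. Passage 15 was the lowest under all 3 treatments for Acta2, Actg2, Tagln and Myl9 (2.63% of all genes tested), although passage 12, the earliest, was not the highest for any of the contractile genes. Of the variation of log2 CPM within WT groups, passages accounted for 97.2% in Cnn1, 95.8% in Tagln, 95.5% in Actg2, 94.8% in Myl9 and 94.0% in Acta2, but for 28.0% in Srf, with a median of 47.4% over all genes tested. Srf was at 1.04 times its group means on average at passage 13, and the library of that passage was its highest with MK-8722 and torin1 but not with DMSO.

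**Figure D4:**
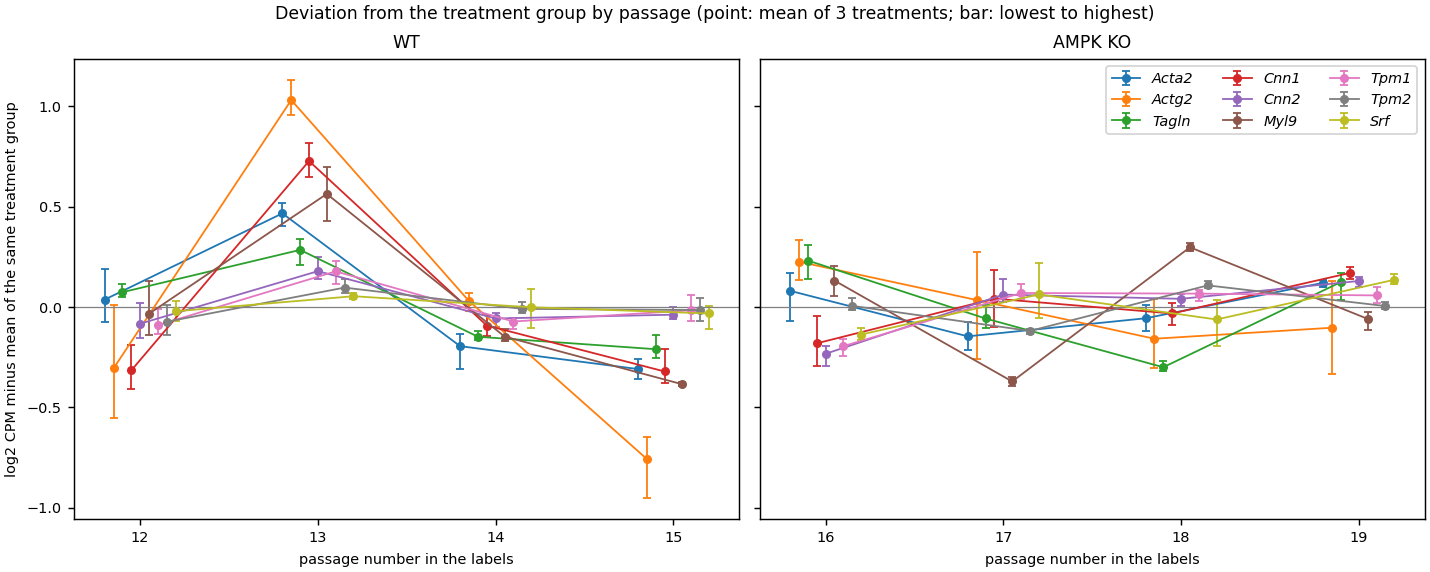
The deviation of log2 CPM from the mean of the treatment group is plotted by passage number for each contractile gene, with the mean of 3 treatments as a point and their lowest and highest as a bar, for WT on the left and AMPK KO on the right. The WT curves rise together at passage 13, most for Actg2 at 1.03, and those of AMPK KO do not all move together, though some, such as Myl9 and Tpm2, do.

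The same libraries stood high in other transcripts too. The summed fibroblast markers were at 17330 to 18400 CPM at passage 13 and at 12030 to 14840 CPM in the other WT libraries, and the summed smooth muscle markers at 368 to 401 CPM against 306.9 to 341 CPM. Library depth (27736585 to 31617987) and RNA integrity numbers (9.9 to 10) of passage 13 lay within the range of the others. The part of these marker levels in the pattern was not tested. Without the 3 libraries of passage 13, an alternative added after the data were seen, 8 genes were again called between the genotypes in DMSO (56.1% of all genes), and Cnn1 joined those called lower with torin1 in WT (46.4% of all genes called; -0.43, SE 0.127, FDR = 0.0064).

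In AMPK KO the passages separated the contractile genes into different patterns. Myl9 and Tpm2 were highest at passage 18 and lowest at passage 17 under all 3 treatments (5.03% and 7.82% of all genes tested). Cnn2 and Cnn1 were highest at passage 19 (1.54%), Cnn2 and Tpm1 lowest at passage 16 (8.83%), Tagln lowest at passage 18 (2.69%) and Acta2 lowest at passage 17. Passages accounted for 97.6% of the within-group variation of Myl9, which ranged from 0.773 times its group mean at passage 17 to 1.23 times at passage 18, and for 95.1% of that of Tpm2, against a median of 53.0% over all genes tested. Acta2 varied less in AMPK KO than in WT, with a within-group SD of 0.145 against 0.354 on the log2 scale.

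Related genes were counted from lists fixed for this comparison with earlier results of these data known. In AMPK KO against WT in DMSO, 13 of 15 cytoskeletal targets of SRF and MRTF were called, 11 lower and 2 higher, with a median log2 fold change of -0.56, where 56.9% of all genes tested were called, 26.0% lower and 30.9% higher. The muscle LIM protein gene Fhl1 was at -2.45 (SE 0.103), Tgfb1i1, a focal adhesion protein, at -1.31 (SE 0.104) and Vcl, which encodes vinculin and links integrins to actin, at -1.22 (SE 0.093), whereas Tes, another focal adhesion protein, was higher at 1.13 (SE 0.109). All 3 tested actin isoforms outside the 9 genes were lower, namely the skeletal actin Acta1 (-2.76, SE 0.307, at 47 to 79 counts per WT DMSO library) and the cytoplasmic Actg1 (-0.68, SE 0.0999) and Actb (-0.31, SE 0.0791). Of the tropomyosin, calponin and transgelin relatives, Tpm4 (-0.70, SE 0.0646) and Cnn3 (-0.32, SE 0.072) were lower, Tagln3, a neuronal form, was higher (4.21, SE 0.365, with 1 to 5 counts per WT DMSO library and 41 to 61 in AMPK KO), and Tpm3 and Tagln2 were not called. The FDR of each called gene named here was at most 0.0012.

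The enzymes that act on myosin differed in both directions. Mylk, the kinase of the regulatory light chain, was higher in AMPK KO DMSO (3.109, SE 0.257, at 112 to 169 counts per library against 9 to 19 in WT), as was the phosphatase subunit gene Ppp1r12b (1.22, SE 0.0673), while Rhoa, which drives contraction through its kinases, was lower (-0.93, SE 0.0307), with Rock1 at -0.63 (SE 0.0457). Of 8 such genes 5 were lower and 2 higher, where 26.0% of all genes tested were lower and 30.9% higher. Among 7 myosin chains 5 were called, a share not far from the 56.9% of all genes, with 3 lower, among them Myh10 (-0.80, SE 0.0453) and Myl6 (-0.66, SE 0.0627), and 2 higher, Myh14 (1.19, SE 0.326) and Myl12b (0.62, SE 0.0925). Myl12b, like Myl9, encodes a regulatory light chain. The FDR of these calls was at most 0.0023.

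Of the 6 tested genes of factors that work with SRF, 3 were called lower, and Mrtfa and Mrtfb were not called. Of all genes tested, 56.9% were called and 26.0% were called lower, so the total called was not above the share of all genes. Mrtfa was at 95.8 ± 10.3 CPM in WT DMSO cells and 102.4 ± 5.48 CPM in AMPK KO DMSO cells (log2 fold change 0.10, SE 0.0869, FDR = 0.34), and Mrtfb at 50.8 ± 1.32 and 48.1 ± 1.51 CPM (-0.08, SE 0.0481, FDR = 0.15, SD and n = 4 each). Myocd, which encodes the smooth muscle cofactor myocardin, had at most 8 counts in any library and was not tested. Fhl2 (-1.92, SE 0.136), Elk3 (-1.08, SE 0.0864) and Elk4 (-0.31, SE 0.0497) were lower, with FDR of at most 5.9e-06. In the TGF-beta list 8 of 10 genes were lower and 1 higher, with a median of -0.74, against 26.0% of all genes lower and 30.9% higher. Of the ligands, Tgfb3 was lower (-2.51, SE 0.201) and Tgfb1 higher (1.21, SE 0.0637), and of the signal carriers Smad7 (-1.06, SE 0.0704) and Smad3 (-0.96, SE 0.0975) were lower (FDR of at most 4.9e-09). Myl9 and Tgfb1 were thus higher in AMPK KO DMSO against the majority of their lists.

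**Figure D5:**
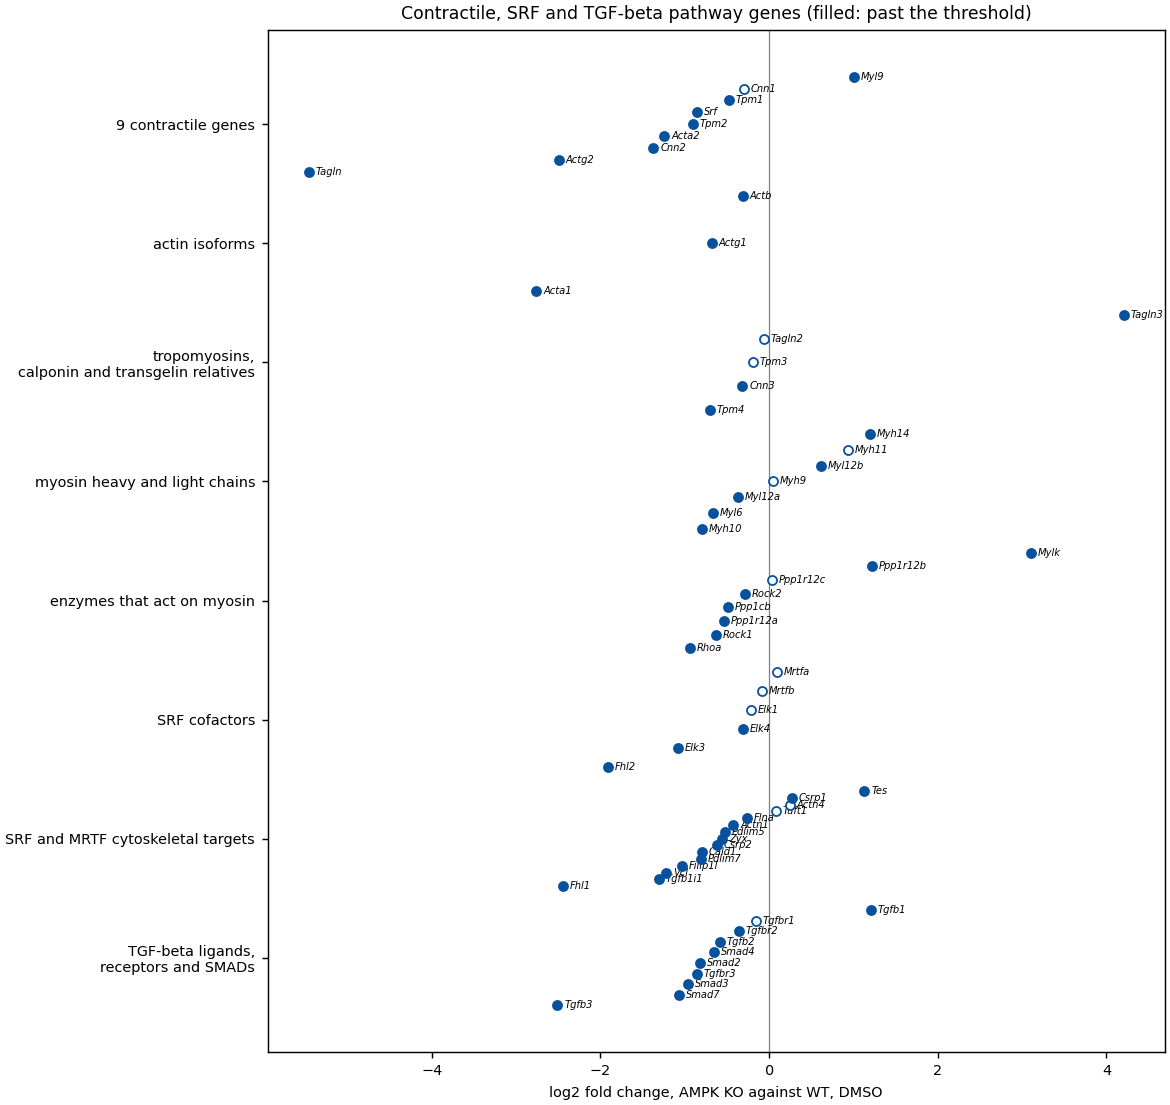
The log2 fold change of AMPK KO against WT in DMSO is plotted on the horizontal axis for each tested gene of the 9 contractile genes and of 7 related lists, and filled points passed the threshold. Most filled points of the SRF and TGF-beta lists lie left of 0, Tagln lies farthest left at -5.46 and Tagln3 farthest right at 4.21.

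With torin1, 4 of the 5 tropomyosin, calponin and transgelin relatives were lower in WT, where 21.1% of all genes were, Tpm4 (-0.67, SE 0.0646), Cnn3 (-0.59, SE 0.0722), Tpm3 (-0.59, SE 0.0452) and Tagln2 (-0.33, SE 0.0586), and in AMPK KO 3 of 5 were, against 17.6% of all genes, Tpm3 (-0.63, SE 0.0453), Cnn3 (-0.43, SE 0.0722) and Tpm4 (-0.41, SE 0.0645), with FDR of at most 3e-05. Tagln3 was not called in either, at 0.87 (SE 0.514, FDR = 0.15) in WT and -0.25 (SE 0.239, FDR = 0.39) in AMPK KO. In the SRF and MRTF target list 3 of 15 were higher and 2 lower in WT (median 0.004 against 0.036 over all genes, of which 47.6% were called), and 4 were higher and none lower in AMPK KO (median 0.19 against 0.055, and 43.5% called). Over the alternatives 1 to 8 of these targets were called in WT and 1 to 9 in AMPK KO. Its largest change in both was a rise, of Tgfb1i1, by 0.88 (SE 0.101) and 1.196 (SE 0.104). Mrtfa was lower with torin1 in both genotypes, at -0.28 (SE 0.0875, FDR = 0.008) and -0.40 (SE 0.0872, FDR = 0.00042), and Mrtfb was at 0.25 in WT, under 1.2-fold, and 0.30 in AMPK KO (SE 0.0477, FDR = 1.1e-05). The non-muscle myosin Myh9 was higher in both, at 0.44 (SE 0.0584) and 0.61 (SE 0.0585), while Myl12b was lower in both, at -0.40 (SE 0.094) and -0.38 (SE 0.0917). In the TGF-beta list 5 of 10 genes were higher and 1 lower in WT, and 4 were higher and none lower in AMPK KO. Of all genes, 47.6% (26.6% higher) and 43.5% (25.9% higher) were called. The totals called, 6 and 4 of 10, were near the shares called, while the counts of higher genes were above the shares called higher. Tgfbr3 was at 0.76 (SE 0.128) in WT and 0.83 (SE 0.136) in AMPK KO.

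With MK-8722 in WT, 4 of the 15 SRF and MRTF targets were called (15.7% of all genes), Pdlim5 (0.54, SE 0.115) and Cald1 (0.28, SE 0.0697) higher and Zyx (-0.35, SE 0.0955) and Filip1l (-0.27, SE 0.0839) lower, with FDR of at most 0.018. Over the alternatives 0 to 5 were called, with 0 at a fold change of at least 1.5. In AMPK KO edgeR called none of these 15 (1.56% of all genes), with 4 at an unadjusted p under 0.05, while DESeq2 called 2 and the fit with passage as a block 3. Tpm3 (-0.31, SE 0.0451, FDR = 1.4e-05) and Rhoa (-0.28, SE 0.0304, FDR = 1.8e-07) were lower with MK-8722 in WT, while the cytoplasmic actin Actg1 was higher (0.30, SE 0.0995, FDR = 0.026).

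Genes whose log2 CPM closely followed Acta2, Tagln and Cnn1 over the 24 libraries were found by Pearson's r among genes with a mean of at least 5 CPM, and are given as a description, since the libraries fall into 2 genotypes and share passages. For Acta2 they included Itgav and Pawr (r = 0.959 for each), which followed it within the 12 WT libraries (0.919 and 0.86) and hardly within AMPK KO (-0.098 and 0.107). For Tagln they included Pitx1 and Isyna1 (r = 0.997 for each), which were low in AMPK KO, at means of 0.0231 and 1.04 CPM against 76.4 and 92.5 CPM in WT, so that the 24 points form 2 clusters, and r within WT was 0.343 and 0.212. For Cnn1 they were Tmem185a, Sparc and Fkbp10 (r = 0.891, 0.858 and 0.825), of which Sparc, an abundant matrix protein gene of fibroblasts, followed Cnn1 within WT (0.9) and within AMPK KO (0.883) alike.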

How the data were processed

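RNA was measured in 24 libraries, 4 in each of 6 groups named by the labels. The authors aligned reads with STAR and quantified them with Salmon in the nf-core/rnaseq workflow against GRCm38, with options for molecular identifiers, and deposited estimated counts per gene and, per transcript, estimated counts and TPM. The labels and methods state no dose or time for these libraries, while captions of the study give doses for other experiments on its MEFs, which are not repeated here. The strand setting of the counting is not given in the sources used here. The total estimated count per library was 26900240 to 34192685. Of the columns of samples not listed, 0 were found.

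From these deposited estimated counts, rounded to whole numbers, edgeR 4.0.16 (R 4.3.3) was fitted to all genes with filterByExpr, TMM scaling, 6 group means and the quasi-likelihood test. Benjamini-Hochberg adjustment ran over 15828 genes, and genes were called where the adjusted p (FDR) was below 0.05 and the change at least 1.2-fold. CPM used TMM library sizes, and log2 CPM a prior count of 2. Intervals are 95% intervals. DESeq2 1.42.0, other scalings, filters, thresholds and blocks, and each library left out in turn were alternatives. The scripts were tested on simulated data. Tables were handled in Python 3.11.15 with pandas 2.3.3 and numpy 2.4.6.

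The members and lists were chosen with earlier results of these data known. All 9 genes are named. Of each related list at most 4 called genes with the largest change are named per comparison, beside Mrtfa, Mrtfb and Myocd whatever their values. For Acta2, Tagln and Cnn1 the 3 genes with the highest r were chosen, passing over gene models, pseudogenes and mitochondrial genes, except that some results are not reported here. Transcripts with a mean share of at least 10% of their gene in some group entered the comparison of shares.

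The passage in the labels was used as a block within genotype, since libraries of the same passage deviated together, with a median r of 0.129 (-0.011 to 0.367 over 24 pairs) against -0.0365 for the other 72 pairs of the same genotype. This block cannot be fitted between the genotypes, which share no passage.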

Additional observations from a re-analysis of the deposited data

Results flagged for a closer look

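Of 54 groups of 4 libraries, 9 genes in 6 groups, 3 had a library that stood apart from the others of its group, and chance gives about 1 in 20 groups. Cnn1 was at 21.96 CPM in WT torin1 replicate 2 and Myl9 at 49.56 CPM in WT MK-8722 replicate 1, both of passage 13. Tpm1 was at 834.2 CPM in AMPK KO MK-8722 replicate 2, of passage 16, the lowest of its group. In the edgeR test of the difference itself, the response to torin1 differed between AMPK KO and WT by 0.64 on the log2 scale for Srf (adjusted p = 0.00066) and by 0.46 for Cnn2 (adjusted p = 0.034).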

How the results depend on the processing

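Over the 9 genes and 7 comparisons, 1316 of 1377 alternative values stayed on the same side of the threshold, 26 lost the call, 35 gained it and 0 called values changed sign. Among the 1316, 84 values that were not called in either fit changed sign. The fall of Tagln in AMPK KO DMSO ranged from -5.58 to -5.32 over 19 alternatives, and the difference of Srf in the response to torin1 from 0.52 to 0.70 over 28.

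For the difference in the response to torin1, where 2 genes were called, 1 was called with at least 10 counts in every library, with DESeq2 size factors, with a fold change of at least 1.5 and with a transcript length offset, and 4 with the replicate block by passage. For MK-8722 in WT, where 0 were called, the block by passage called 1. For torin1 in AMPK KO, where 1 was called, 3 were called by adjusted p alone, 2 with at least 10 counts in every library, 4 with the compared groups alone, 2 by DESeq2, 2 with DESeq2 size factors, 0 at a fold change of at least 1.5, 2 with no filter and 3 with the block by passage. For torin1 in WT, where 4 were called, 1 was called at a fold change of at least 1.5. The causes of these shifts were not tested. Leaving out 1 library gave 8 to 8 calls for AMPK KO against WT, 0 to 0 for MK-8722 in either genotype and for the difference in its response, 3 to 7 for torin1 in WT, 2 to 2 for torin1 in AMPK KO and 1 to 2 for the difference in the response to torin1.

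Replicate numbers did not pair the libraries, with a median r of 0.0245 (-0.196 to 0.25, 5 of 60 pairs over 0.1), and with that number as a replicate block 47.6% of all genes were called for torin1 in WT. In the related lists, 964 of 1071 counts stayed within 1.5 times and 107 moved. Of 44 transcript shares, 34 moved by more than 1 SD when estimated counts replaced TPM. Depth limits Actg2 most, at 25 to 41 counts per AMPK KO DMSO library.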
